A study of Homo sapiens with 4 samples.

Results

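The genes described here are a set of 10 measured in the colorectal cancer cell lines HT29 and HCT116: the aldo-keto reductases AKR1C1, AKR1C2, AKR1C3 and AKR1B10, and the NRF2 target genes NQO1, HMOX1, GCLC, GCLM, TXNRD1 and SRXN1. They were picked by name, by matching the gene identifiers of the count table to gene symbols, and all 10 were found among the 61544 genes of the table. HT29 and HCT116 are established human lines of intestinal epithelial origin, each derived from a single tumour and therefore limited as a model of the colon. Each line was grown in Advanced DMEM/F-12 with fetal bovine serum, either left as the control or given lipopolysaccharide (LPS, a lipid of the outer membrane of Gram-negative bacteria) at 1 ug/mL for 24 h. The study set the lines side by side to compare their responses to LPS, with 1 RNA-seq library per line and condition, 4 libraries in all and no repeat culture.

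NRF2, encoded by NFE2L2, is a transcription factor that is held in check by KEAP1, an adaptor that presents it to a CUL3 ubiquitin ligase for degradation. When reactive electrophiles or oxidants modify KEAP1, NRF2 accumulates, pairs with small MAF proteins and binds antioxidant response elements near genes for glutathione synthesis, thioredoxin recycling, quinone reduction and heme breakdown. Aldo-keto reductases use NADPH to reduce aldehydes and ketones of sugars, lipids, steroids and xenobiotics, and in human cells several of them are among the genes that respond strongly to NRF2 activators.

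AKR1C1 and AKR1C2 are neighbours on chromosome 10 and nearly the same gene over long stretches, which bears on how far their counts can be told apart. The 250 bases before the start that the RefSeq promoter table gives for each gene on GRCh38.p14 are shown as an example of this likeness. The 245 bases that are identical in both are in capitals. How far the counts can be told apart rests on the transcripts, which are compared further on. The AKR1C1 stretch lies at chr10:4963165-4963414 on the plus strand and the AKR1C2 stretch at chr10:5003858-5004107 on the minus strand, each written 5′ to 3′ along its gene. The RefSeq starts lie inside the GENCODE bounds of the genes given with their counts, which hold longer transcripts, so both stretches overlap or lie within those bounds.
AKR1C1: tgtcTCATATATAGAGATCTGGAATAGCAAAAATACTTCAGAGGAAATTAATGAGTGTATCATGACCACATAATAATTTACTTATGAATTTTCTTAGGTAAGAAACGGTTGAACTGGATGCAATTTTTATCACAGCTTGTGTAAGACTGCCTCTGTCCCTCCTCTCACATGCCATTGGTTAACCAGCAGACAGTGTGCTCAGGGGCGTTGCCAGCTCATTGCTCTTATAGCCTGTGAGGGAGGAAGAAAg
AKR1C2: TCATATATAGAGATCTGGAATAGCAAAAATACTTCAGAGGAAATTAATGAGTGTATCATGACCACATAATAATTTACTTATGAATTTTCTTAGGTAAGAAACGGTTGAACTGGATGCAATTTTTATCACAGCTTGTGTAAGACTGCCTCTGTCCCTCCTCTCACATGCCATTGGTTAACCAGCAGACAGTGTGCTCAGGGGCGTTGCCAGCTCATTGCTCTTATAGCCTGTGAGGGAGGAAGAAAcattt

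The core letters of the antioxidant response element, TGACNNNGC, were searched on both strands of the 300-base RefSeq promoter windows, which cover 8 of the 10 genes in 10 entries. HMOX1 and AKR1B10 had no entry. A match was found in 3 of the 10 entries, against 13.3% of 35116 entries for all genes. The special case TGACTCAGC was found in 2 of the 10 entries when the window was widened to 5050 bases, against 6.5% of all entries. In the 300-base windows TGACTCAGC was in 0 of the 10 entries, against 0.6% of all entries, and in the 5050-base windows TGACNNNGC was in 9 of 10, against 82.6%. Each match of TGACNNNGC in the short windows and of TGACTCAGC in the long ones is shown with the bases around it, 5′ to 3′ along the gene, with the matched letters in capitals, and is a description of the sequence only. A match on the opposite strand reads as its reverse complement. The windows lie at chr1:93909441-93909479 (minus strand) for GCLM, chr6:53548234-53548272 (minus strand) for GCLC, chr16:69726992-69727030 (minus strand) for NQO1, and chr12:104215665-104215703, chr12:104215756-104215794 and chr12:104286915-104286953 (plus strand) for TXNRD1, all on GRCh38.p14.
GCLM: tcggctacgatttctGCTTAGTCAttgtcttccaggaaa
GCLC: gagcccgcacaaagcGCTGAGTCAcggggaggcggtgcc
NQO1: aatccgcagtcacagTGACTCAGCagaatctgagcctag
TXNRD1 site 1: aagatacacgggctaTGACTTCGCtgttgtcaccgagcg
TXNRD1 site 2: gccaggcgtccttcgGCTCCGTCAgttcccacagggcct
TXNRD1 site 3: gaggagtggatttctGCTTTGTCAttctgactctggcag

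The libraries held 19105058 to 21268959 counts, and mitochondrial transcripts took 3.75% and 4.29% of them in HT29 (control and LPS) and 5.01% and 7.16% in HCT116. Of 10 colon epithelial markers, 7 and 8 reached 1 CPM (a count scaled to the library total and normalized for library composition) in the HT29 libraries and 6 in each HCT116 library. Their summed level was 17929 to 19244 CPM in HT29 and 5055 to 5107 CPM in HCT116, with KRT20 at 0 in every library and VIL1, an enterocyte actin-bundling protein, at 2637 and 3004 counts in HT29 against 4 and 0 in HCT116. Of the 8 epithelial markers tested, 6 were higher in HT29 and 2 were higher in HCT116 by edgeR, against 38.0% and 38.6% of the 14516 genes tested. Among those 6, VIL1 and CDH17 were under 1 CPM in both HCT116 libraries and entered the test through HT29 alone, which fixed their direction. The 2 higher in HCT116 were CDX2, an intestinal transcription factor, at 18 and 39 counts in HT29 against 474 and 572, and KRT19, a keratin, at 27249 and 27633 against 40723 and 35505. The 6 leukocyte markers summed to 1035 and 1050 CPM in HT29, with LYZ (lysozyme) at 18532 and 20709 counts and CD14, the LPS co-receptor, at 140 and 137, and to 1.37 and 1.30 CPM in HCT116, with LYZ at 0 and CD14 at 12 and 9 counts, while CD3E was at 0 in every library and PTPRC had at most 2 counts. The 7 fibroblast and endothelial markers summed to 4.63 to 6.93 CPM in HT29 and 99.0 to 101 CPM in HCT116, with COL1A1 at 1999 and 2225 counts in HCT116 and COL1A2, DCN and CDH5 at 0 in every library. The part of these markers in the differences between the lines was not tested.

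The 4 aldo-keto reductases were abundant in HT29 and close to absent in HCT116, the largest difference between the lines among the 10 genes. AKR1B10, which reduces retinal and lipid aldehydes, lies at chr7:134527567-134541412 on the plus strand. It had 4820 counts in untreated and 4301 in LPS-treated HT29 cells, against 22 in untreated and 20 in LPS-treated HCT116 cells. On the scale per gene length, in FPKM (CPM per kilobase of exon), these were levels of 151, 122, 0.549 and 0.545, the order in which libraries are given from here on unless they are named. Both HT29 libraries lay far above both HCT116 libraries, and the lines did not overlap. The HT29 level was 275 times the HCT116 level between the controls (95% counting interval 181 to 439) and 224 times between the LPS libraries (145 to 367).

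AKR1C3, which converts androstenedione to testosterone and reduces prostaglandins, lies at chr10:5035354-5107686 on the plus strand. Its counts were 3187 and 2684 in HT29 (control and LPS) against 41 and 22 in HCT116, or levels of 45.2, 34.6, 0.463 and 0.272 FPKM. The HT29 level was 97.5 times that of HCT116 between the controls (71.7 to 136) and 127 times between the LPS libraries (83.8 to 203). AKR1C3 was the aldo-keto reductase of the set with the most counts in HCT116.

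AKR1C1, which inactivates progesterone, lies at chr10:4963253-4983283 on the plus strand, and its counts were 1011 and 782 in HT29 against 12 and 10 in HCT116. Its levels were 6.40 and 4.49 FPKM in HT29 against 0.0605 and 0.0551 FPKM in HCT116. The fold between the lines was 106 in the controls (60.2 to 205) and 81.5 with LPS (44.1 to 171). AKR1C2, which inactivates dihydrotestosterone, lies at chr10:4987775-5018031 on the minus strand. It had 854 and 721 counts in HT29 against 2 and 0 in HCT116, or 7.78 and 5.97 FPKM against 0.0145 and 0. The fold of AKR1C2 between the controls was 536, with a counting interval of 148 to 4430 because the HCT116 value rests on 2 counts. Between the LPS libraries AKR1C2 was at least 251-fold higher in HT29, taking 3 counts as the limit that a count of 0 allows in the HCT116 library, and the lower end of the 95% counting interval of this fold was 203.

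By the quasi-likelihood test of edgeR, adjusted by Benjamini-Hochberg over 14516 genes, all 4 were higher in HT29. AKR1C1, AKR1C2 and AKR1B10 were under 1 CPM in both HCT116 libraries and passed the filter on low counts through HT29 alone. For these genes the filter fixed the direction, and the test adds nothing to it. The log2 fold changes were 7.96 ± 0.12 (SE) for AKR1B10 (adjusted p = 3.28e-21), 6.75 ± 0.12 for AKR1C3 (adjusted p = 2.19e-20) and 6.54 ± 0.20 for AKR1C1 (adjusted p = 1.34e-16). AKR1C2 had a fitted log2 fold change of 9.66 ± 0.33 (adjusted p = 3.50e-16), a size that depends on how its 2 counts in HCT116 are treated. In this test the control and the LPS library of a line stood in for replicates, with 1 residual degree of freedom. That degree of freedom holds how far the line difference varied between control and LPS, and edgeR drew the spread partly from all genes tested. The p-values therefore do not measure the spread between repeat cultures of a line. In bulk RNA, a smaller number of cells that express a gene and less of its RNA per cell cannot be told apart.

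**Figure D1:**
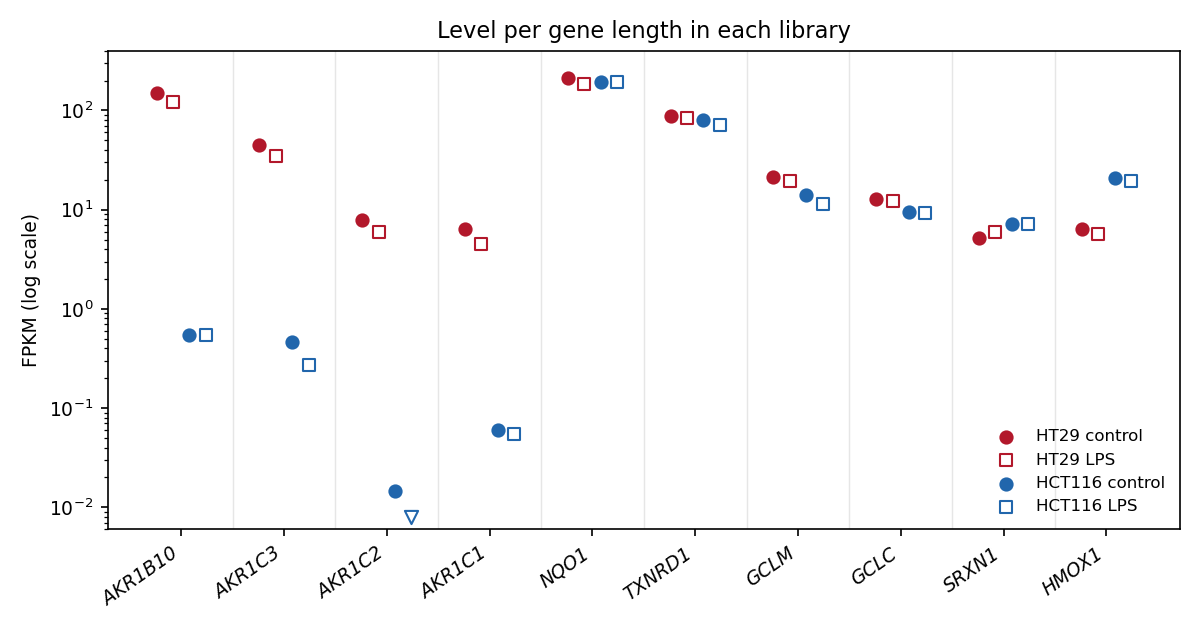
Level of the 10 genes in each library in FPKM on a log axis, with filled circles for controls, open squares for LPS, red for HT29 and blue for HCT116. The open triangle marks AKR1C2 in HCT116 with LPS, whose count was 0 and which has no place on a log axis. The 4 aldo-keto reductases at the left are separated by line, with 4.49 to 151 FPKM in HT29 and at most 0.549 FPKM in HCT116, while the genes at the right lie closer together.

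Summed over the 4 aldo-keto reductases, HT29 had 9872 counts in the control and 8488 with LPS, against 77 and 52 in HCT116. The sums per length were 210 and 167 FPKM in HT29 against 1.09 and 0.872 FPKM in HCT116. For the other 6 genes together the sums were 346 and 311 FPKM in HT29 against 325 and 311 FPKM in HCT116. The sums of those 6 overlapped between the lines, and the sums of the aldo-keto reductases did not. NQO1 and TXNRD1 made up most of the sums of the 6, with 212 and 87.2 FPKM in the HT29 control. Taken singly, NQO1 overlapped between the lines in FPKM, while HMOX1, GCLC, GCLM, TXNRD1 and SRXN1 did not.

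Close copies can share reads, with the way such reads were counted not given in the sources used here. Between transcripts, the longest run of identical bases was 399 bases for AKR1C1 and AKR1C2, 171 for AKR1C2 and AKR1C3, and 112 for AKR1C1 and AKR1C3. AKR1B10 shared no run longer than 17 bases with any of these. Of the 150-base windows of the main transcript, 17.22% were also found in another gene for AKR1C2, 7.91% for AKR1C1 and 2.12% for AKR1C3. The split of counts between AKR1C1 and AKR1C2 is therefore uncertain, whereas their sum and the AKR1B10 counts are less exposed to this.

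NQO1, the quinone reductase that is the classic readout of NRF2, was high and nearly equal in both lines. It lies at chr16:69706996-69726668 on the minus strand. The counts were 11380 and 10840 in HT29 (control and LPS) against 13036 and 11808 in HCT116, or levels of 212, 184, 194 and 192 FPKM. The HT29 control was the highest and the HT29 LPS library the lowest, so that the HCT116 values lay inside the HT29 range. The log2 fold change between the lines was 0.03 ± 0.07 (SE; adjusted p = 0.674, edgeR's quasi-likelihood test). Its sign turned to -0.12 when only library size was used for scaling, a setting that moved the median log2 fold change of all genes by -0.16. The exons of NQO1 overlap an antisense RNA over 19.4% of their length, and that RNA had 0 counts in every library.

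HMOX1, heme oxygenase 1, which opens the heme ring to release iron, carbon monoxide and biliverdin, showed the opposite order. It lies at chr22:35380361-35394214 on the plus strand, and its counts were 268 and 258 in HT29 against 1097 and 929 in HCT116. The levels were 6.44 and 5.64 FPKM in HT29 against 21.0 and 19.5 FPKM in HCT116, with no overlap. The HT29 level was 0.306 of the HCT116 level between the controls (0.267 to 0.351) and 0.290 between the LPS libraries (0.251 to 0.333). HMOX1 was higher in HCT116 by edgeR's quasi-likelihood test, with a log2 fold change of HT29 over HCT116 of -1.75 ± 0.12 (SE; adjusted p = 3.58e-11).

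The glutamate-cysteine ligase carries out the limiting step of glutathione synthesis, with GCLC as its catalytic and GCLM as its modifier subunit. GCLM, at chr1:93885199-93909456 on the minus strand, had 2105 and 2117 counts in HT29 against 1731 and 1289 in HCT116, or levels of 21.5, 19.7, 14.1 and 11.5 FPKM. GCLC, at chr6:53497341-53616970 on the minus strand, had 1991 and 2070 counts in HT29 against 1837 and 1647 in HCT116, or levels of 12.8, 12.1, 9.42 and 9.23 FPKM. Both HT29 libraries lay above both HCT116 libraries for each subunit. By edgeR's quasi-likelihood test both were higher in HT29, GCLM by a log2 fold change of 0.69 ± 0.07 (SE; adjusted p = 3.56e-08) and GCLC by 0.42 ± 0.07 (SE; adjusted p = 1.88e-05). The level of GCLM per GCLC, both in FPKM, was 1.68 and 1.62 in HT29 (control and LPS) against 1.50 and 1.24 in HCT116. The size of this ratio depends on the lengths used, 5426 bases of exon for GCLM and 8618 for GCLC. Their main transcripts have 4883 and 3785 bases, so which subunit had more RNA cannot be read from it. The comparison between the lines does not depend on length. GCLC exons overlap other RNAs over 9.7% of their length, among them a gene on the same strand with 59 and 66 counts in HT29 against 10 and 7 in HCT116.

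TXNRD1, cytosolic thioredoxin reductase, which returns thioredoxin to its reduced form with NADPH, lies at chr12:104215779-104350307 on the plus strand. Its counts were 10552 and 11235 in HT29 against 12039 and 10016 in HCT116, or levels of 87.2, 84.3, 79.3 and 72.1 FPKM. The HT29 libraries were the upper pair by a small margin, with a log2 fold change of 0.18 ± 0.07 (SE; adjusted p = 0.0216, edgeR's quasi-likelihood test). That call was lost with library size alone as the scaling (log2 fold change 0.03, adjusted p = 0.711) and without LPS as a block (0.18, adjusted p = 0.0594).

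SRXN1, sulfiredoxin, which repairs overoxidized peroxiredoxins, lies at chr20:646615-653200 on the minus strand. It had 239 and 297 counts in HT29 against 413 and 372 in HCT116, or levels of 5.24, 5.92, 7.22 and 7.11 FPKM, with both HCT116 libraries above both HT29 libraries. The log2 fold change of HT29 over HCT116 was -0.36 ± 0.16 (SE; adjusted p = 0.0410, edgeR's quasi-likelihood test), and DESeq2 did not call it (adjusted p = 0.0841). The SRXN1 counts are uncertain, since 90.7% of the gene's exon length also belongs to another gene on the same strand, which had 6, 0, 5 and 1 counts in the libraries.

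Ordered by level per length in HT29, NQO1 came first with 184 to 212 FPKM, then AKR1B10 with 122 to 151, TXNRD1 with 84.3 to 87.2, AKR1C3 with 34.6 to 45.2, GCLM with 19.7 to 21.5 and GCLC with 12.1 to 12.8. On this scale these 6 did not overlap each other between libraries of the line. AKR1C2, HMOX1, AKR1C1 and SRXN1 followed at 4.49 to 7.78 FPKM with overlapping ranges. In HCT116 NQO1 was again first and TXNRD1 came next, followed by HMOX1, GCLM, GCLC and SRXN1 at 7.11 to 21.0 FPKM. AKR1B10, AKR1C3, AKR1C1 and AKR1C2 closed the HCT116 order at 0 to 0.549 FPKM. AKR1B10 thus ranked 2 of the 10 genes in HT29 and 7 of 10 in HCT116 on this scale. The order between genes, and the gaps in it, depend on the exon length used. That length was 3911 bases for AKR1C3, 6710 for TXNRD1 and 8618 for GCLC, against main transcripts of 1186, 3860 and 3785 bases. The order under other lengths was not tested.

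Across the set, 7 of 10 genes were higher in HT29, 2 were higher in HCT116 (HMOX1 and SRXN1) and NQO1 was not called. For AKR1B10, AKR1C1 and AKR1C2 the direction was fixed by the filter, as given above. The background of this comparison is high: by the same edgeR test 38.0% of the 14516 genes tested were higher in HT29 and 38.6% were higher in HCT116. The median size of the log2 fold change between the lines, regardless of sign, was 1.22 for the 10 genes and 0.757 for all genes tested. The 4 aldo-keto reductases lay at 6.54 to 9.66 and the other 6 at 0.03 to 1.75. DESeq2 called 8 of the 10, against 10162 of the 14516 genes tested.

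**Figure D2:**
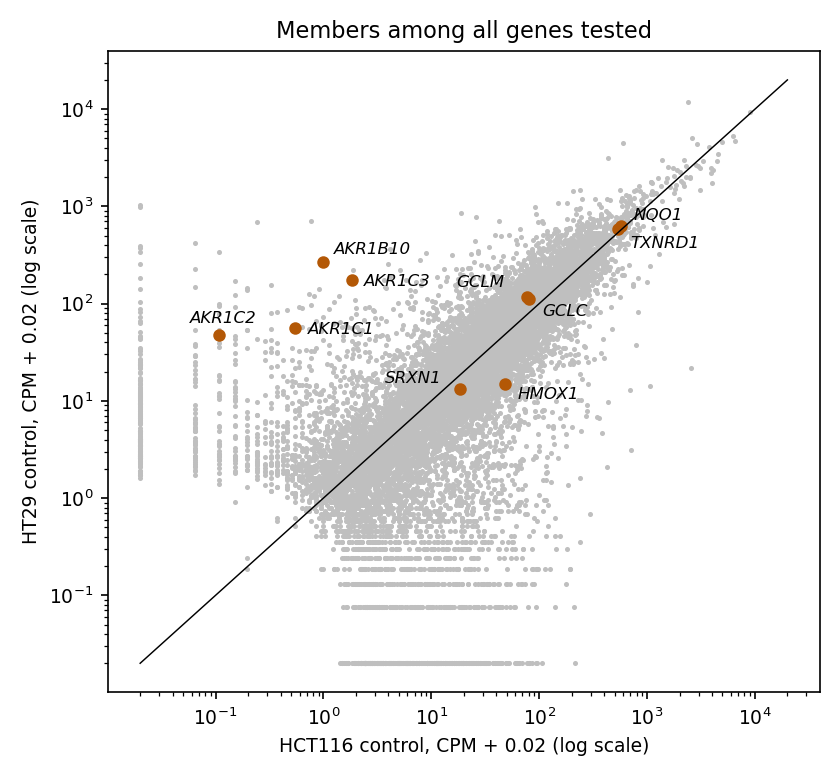
CPM in the HT29 control against CPM in the HCT116 control, on log axes with 0.02 added, for the 14516 genes tested (grey) and the 10 genes (orange, labelled); the line marks equal levels. AKR1B10, AKR1C3, AKR1C1 and AKR1C2 lie far above the line, and GCLM and GCLC lie a little above it (1.53 and 1.36 times). HMOX1 and SRXN1 lie below it (0.306 and 0.726 times), and NQO1 and TXNRD1 lie near it.

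The question for LPS was whether it moved these genes within a line. With 1 library per condition there is no test of this, and the values are log2 ratios of the LPS library to the control library, with 95% intervals for counting error only. In HT29 AKR1C1 stood at 39.4 CPM with LPS against 56.1 in the control, the largest difference of the set, with a log2 ratio of -0.51 (-0.65 to -0.37). AKR1C3 was at 135 against 177 CPM (log2 ratio -0.39, -0.46 to -0.31), AKR1C2 at 36.3 against 47.4 CPM (-0.38, -0.53 to -0.24) and AKR1B10 at 217 against 267 CPM (-0.30, -0.36 to -0.24). All 4 aldo-keto reductases were thus lower in the LPS library than in the control, AKR1C1 by the most and AKR1B10 by the least.

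The NRF2 targets in HT29 differed less. NQO1 was at 546 CPM with LPS and 631 CPM in the control, a log2 ratio of -0.21 (-0.25 to -0.17). The log2 ratio was -0.13 (-0.22 to -0.04) for GCLM and -0.05 (-0.09 to -0.0098) for TXNRD1. For HMOX1 (-0.19, -0.45 to 0.06), GCLC (-0.08, -0.17 to 0.0069) and SRXN1 (0.17, -0.08 to 0.43) the interval reached across 0. SRXN1 was the 1 gene of the set that was higher in the HT29 library with LPS.

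None of the 10 genes passed a log2 ratio of 0.58 in either direction in HT29, where 3.50% of 13201 genes tested lay above 0.58 and 2.70% lay below -0.58. The counting interval lay below 0 for 7 of the 10 genes (the 4 aldo-keto reductases, NQO1, GCLM and TXNRD1) and above 0 for 0 of 10, while 18.5% of all genes tested lay below and 15.9% above. The interval narrows as counts rise, and TXNRD1, with 10552 and 11235 counts, cleared 0 at a log2 ratio of -0.05. The shares over all genes include genes down to a mean of 1 CPM, so they are not matched for counts. This count of intervals was chosen after the data were seen. The median log2 ratio was -0.20 for the 10 genes and -0.0076 for all genes tested. The counting interval does not cover differences between cultures, and the mitochondrial share of the HT29 libraries differed too, as given above; its part in these values was not tested.

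In HCT116, 7 of the 10 genes had a mean of at least 1 CPM and received a ratio. AKR1C1, AKR1C2 and AKR1B10 did not, at 12 and 10, 2 and 0, and 22 and 20 counts. AKR1C3 was at 1.06 CPM with LPS and 1.81 CPM in the control, a log2 ratio of -0.72 with an interval of -1.59 to 0.01 on 22 and 41 counts. GCLM stood at 62.3 against 76.5 CPM (log2 ratio -0.30, -0.40 to -0.19) and TXNRD1 at 484 against 532 CPM (-0.14, -0.18 to -0.10). NQO1 was at 570 and 576 CPM, nearly the same in both libraries (log2 ratio -0.01, -0.05 to 0.02).

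The remaining HCT116 values were log2 ratios of -0.11 (-0.24 to 0.02) for HMOX1, -0.03 (-0.13 to 0.07) for GCLC and -0.02 (-0.23 to 0.18) for SRXN1. AKR1C3 was the 1 gene of 7 below -0.58 and 0 of 7 lay above 0.58, against 2.34% and 3.56% of the 14337 genes tested in HCT116. The counting interval lay below 0 for 2 of 7 (GCLM and TXNRD1) and above 0 for 0 of 7, where 18.2% of all genes tested lay below and 17.0% above. These shares have the same limit as those for HT29. The median log2 ratio was -0.11 for the 7 genes and -0.0025 for all genes tested. The mitochondrial share was 7.16% in the HCT116 LPS library and 5.01% in its control, and what it did to these values was not tested.

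**Figure D3:**
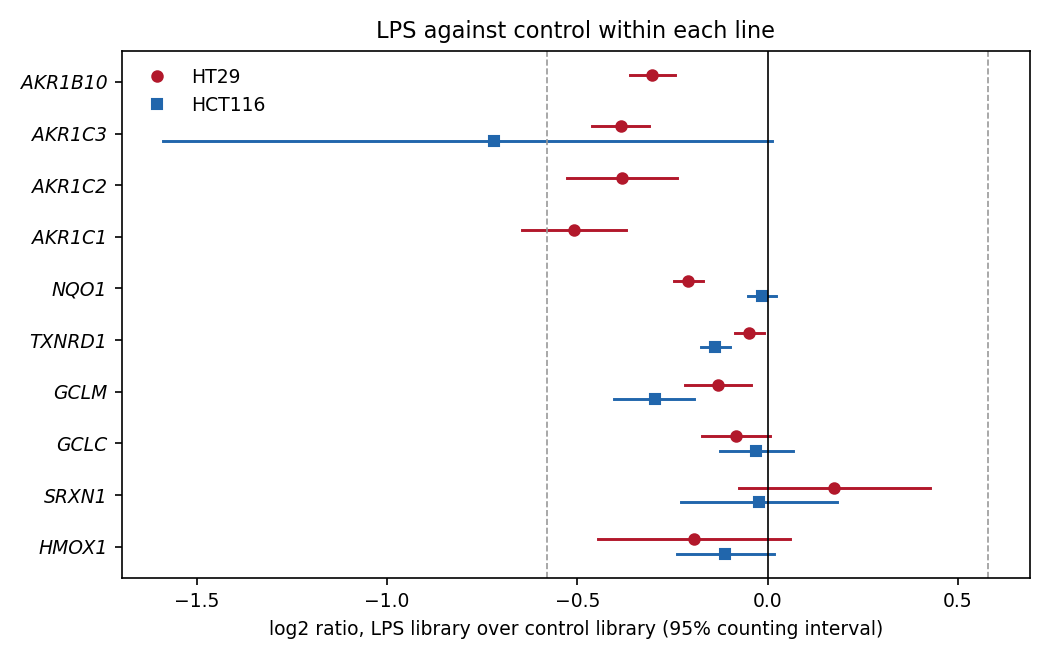
Ratio on the log2 scale of the LPS library to the control library in HT29 (red circles) and HCT116 (blue squares), with 95% counting intervals as bars; dashed lines mark -0.58 and 0.58. Every aldo-keto reductase with a ratio lies to the left of 0, the HCT116 bar of AKR1C3 is wide because it rests on 41 and 22 counts, and AKR1B10, AKR1C2 and AKR1C1 have no HCT116 ratio.

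Taking both lines together, with the line as a block, edgeR's quasi-likelihood test called 0 of the 10 genes for LPS. The background was 0.124% of 14516 genes higher and 0.0964% lower with LPS, and DESeq2 called 0 of the 10 as well. The fitted log2 fold change was negative for 9 of 10 genes, and its median over all 14516 genes tested was -0.0019. An unadjusted p under 0.05 was reached by 4 of the 10, against 1101 of the 14516 genes tested, namely AKR1C3 (log2 fold change -0.42 ± 0.10, SE, adjusted p = 0.0921), AKR1C1 (-0.47 ± 0.17, adjusted p = 0.423), AKR1B10 (-0.29 ± 0.09, adjusted p = 0.329) and GCLM (-0.21 ± 0.07, adjusted p = 0.403). AKR1C3 was called when the filter on low counts was dropped or set at a mean of 5 CPM (adjusted p = 0.0234 and 0.00507, edgeR). The values of the aldo-keto reductases in this test come almost wholly from HT29, since HCT116 added few counts. Here the lines stood in for replicates, with 1 residual degree of freedom, so the p-values do not measure the spread between repeat cultures. Whether LPS acted differently in the lines could not be tested with 1 library per condition.

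The regulators of NRF2 were all expressed in both lines, and 7 of the 12 were higher in HT29, 3 were higher in HCT116 and 2 were not called by edgeR's quasi-likelihood test. Over all 14516 genes tested, 38.0% were higher in HT29 and 38.6% were higher in HCT116. NFE2L2, the gene for NRF2 itself, had 1742 and 1875 counts in HT29 against 2185 and 2104 in HCT116, or levels of 17.0, 16.7, 17.0 and 17.9 FPKM. Its log2 fold change between the lines was -0.05 ± 0.07 (SE; adjusted p = 0.496, edgeR). KEAP1 was higher in HCT116, with 4383 and 4053 counts against 2199 and 2279 in HT29 and a log2 fold change of HT29 over HCT116 of -0.72 ± 0.07 (SE; adjusted p = 5.03e-09, edgeR). The transcript level of NRF2 was thus close in lines that differed in its inhibitor, while the amount and location of the proteins were not measured.

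Of the ubiquitin ligase parts, CUL3, the scaffold to which KEAP1 binds, had a log2 fold change of 0.25 and was called higher in HT29, and its RING partner RBX1 stood at 0.10 and was not called. BTRC, the receptor of a KEAP1-independent route of NRF2 breakdown, was higher in HCT116, with 1002 and 976 counts against 230 and 311 (log2 fold change -1.69). SQSTM1, the autophagy receptor that can sequester KEAP1 and is itself an NRF2 target, was also higher in HCT116, with 12200 and 10942 counts against 6616 and 7224 (-0.55).

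Among the factors that share or compete for the same DNA element, NFE2L3, an NRF2 relative, was higher in HT29, with 1699 and 1788 counts against 872 and 743 (log2 fold change 1.31). NFE2L1, another relative, stood at 0.31. The small MAF partners MAFK, MAFF and MAFG were higher in HT29 at 0.77, 0.44 and 0.30, and DESeq2 did not call MAFF (adjusted p = 0.0641). BACH1, the repressor of HMOX1, had 508 and 634 counts in HT29 against 588 and 478 in HCT116 and was called higher in HT29 at 0.29 ± 0.13 (SE; adjusted p = 0.0408, edgeR). Its raw counts overlapped between the lines, and DESeq2 did not call it (adjusted p = 0.170). DESeq2 called 8 of the 12 regulators between the lines, against 10162 of the 14516 genes tested. For LPS over both lines 0 of 12 were called by edgeR or DESeq2, and 0 of 12 had an unadjusted p under 0.05.

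Of the 19 other glutathione genes, 17 were tested, and 8 were higher in HT29, 8 were higher in HCT116 and 1 was not called between the lines by edgeR's quasi-likelihood test. The background for this list and those that follow is 38.0% of 14516 genes higher in HT29 and 38.6% higher in HCT116. Of the genes named in these lists, GPX2, GSTM2, CBR1, UGT1A1, UGT1A6 and AKR1B1 were under 1 CPM in both libraries of 1 line. For these genes the filter fixed the direction. GPX2, the gastrointestinal glutathione peroxidase, had 12327 and 13688 counts in HT29 against 5 and 6 in HCT116, or 510 and 514 FPKM against 0.165 and 0.216. The fold was 3093 between the controls (95% counting interval 1325 to 9526). GSTM2 and GSTM4, cytosolic glutathione transferases of the mu class, went the other way. GSTM2 had 1 and 1 counts in HT29 against 119 and 122 in HCT116, a ratio of 0.0105 between the controls (0.000265 to 0.0599), and GSTM4 had 26 and 24 against 507 and 422 (log2 fold change -4.01). The transferases of this class are close copies, so the split of counts among them is uncertain, and GSTA1 and GSTM3 were under the filter.

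A match to TGACNNNGC was also present in the RefSeq promoter window of GPX2, shown because GPX2 had the widest gap among the glutathione genes, a choice made after its values were seen. The window lies at chr14:64942844-64942882 on the minus strand of GRCh38.p14, with the match in capitals.
GPX2: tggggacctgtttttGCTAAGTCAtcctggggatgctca

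Of the 10 other thioredoxin and peroxiredoxin genes, 2 were higher in HT29, 6 were higher in HCT116 and 2 were not called. TXN, thioredoxin, the substrate of TXNRD1, was higher in HT29 with 10386 and 9891 counts against 4104 and 3354 (log2 fold change 1.64), and so was TXNRD2, the mitochondrial thioredoxin reductase, with 2055 and 2183 against 890 and 766 (1.55). TXNRD3, a thioredoxin and glutathione reductase best known from testis, was higher in HCT116 with 425 and 308 counts against 48 and 61 (-2.54). The 3 reductase genes thus differed in direction or size between the lines, with TXNRD1 at 0.18.

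NADPH is the reductant that NQO1, TXNRD1 and the aldo-keto reductases use. Of 5 enzymes listed for NADPH production and the linked pentose phosphate pathway, 3 were higher in HT29, 0 were higher in HCT116 and 2 were not called. TALDO1, transaldolase, had 9103 and 8447 counts in HT29 against 3646 and 3196 in HCT116 (log2 fold change 1.56). PGD, which makes NADPH from phosphogluconate, had 5966 and 6218 against 5892 and 5470 (0.29). TKT, transketolase, had 15863 and 18183 against 16206 and 17993 (0.19), with raw counts that overlapped between the lines. In CPM it stood at 880 and 916 in HT29 against 716 and 869 in HCT116, without overlap. DESeq2 called 2 of the 5, TALDO1 and PGD, against 10162 of the 14516 genes tested, and did not call TKT (adjusted p = 0.0617).

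Of the 8 other heme and iron genes, 7 were tested, with 2 higher in HT29, 3 higher in HCT116 and 2 not called, and HMOX2 was under the filter. The heme enzymes with the widest gaps were higher in HCT116, as HMOX1 was. BLVRA, which reduces the biliverdin made by heme oxygenase, had 49 and 42 counts in HT29 against 693 and 534 in HCT116 (log2 fold change -3.55). FECH, the last enzyme of heme synthesis, had 443 and 476 against 1900 and 1613 (-1.74), and BLVRB, another biliverdin and flavin reductase, had 741 and 793 against 1753 and 1662 (-0.96).

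Of 16 other detoxification and export genes, 15 were tested, 9 were higher in HT29, 4 were higher in HCT116 and 2 were not called, and CBR3 was under the filter. CBR1, a carbonyl reductase of another enzyme family, showed a pattern like that of the aldo-keto reductases, with 716 and 755 counts in HT29 against 2 and 2 in HCT116 and a ratio of 449 between the controls (95% counting interval 124 to 3715). UGT1A1, which conjugates bilirubin, had 447 and 596 counts in HT29 and 0 in both HCT116 libraries, at least 187-fold higher in the control and 207-fold with LPS. UGT1A6, a phenol glucuronosyltransferase, had 268 and 319 counts against 0 and 0, at least 112-fold and 111-fold higher. These folds take 3 counts per library as the limit of a count of 0, and the lower ends of their 95% counting intervals were 151 and 168 for UGT1A1 and 90.5 and 89.6 for UGT1A6. The UGT1A genes share their last exons, so their counts cannot be told apart from those of the other genes of the cluster.

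The other aldo-keto reductases did not all follow the 4 of the set. Of 9 genes, 6 were tested, and 4 were higher in HT29, 1 was higher in HCT116 and 1 was not called, while AKR1B15, AKR1C4 and AKR1D1 were under the filter. AKR1B1, aldose reductase, the closest relative of AKR1B10 on the list beside AKR1B15, had 15 and 9 counts in HT29 against 1457 and 1255 in HCT116, or 0.228 and 0.124 FPKM against 17.6 and 16.6. Its log2 fold change of HT29 over HCT116 was -6.61 ± 0.19 (SE; adjusted p = 3.24e-17, edgeR's quasi-likelihood test), the reverse of AKR1B10 at 7.96. AKR1B1 was at 0.832 and 0.453 CPM in HT29 and passed the filter through HCT116 alone. As for AKR1B10, the filter fixed the direction, and the test adds nothing to it. AKR7A3 and AKR7L, aflatoxin aldehyde reductase relatives, were higher in HT29. AKR7A3 had 494 and 508 counts against 41 and 16 (log2 fold change 4.37) and AKR7L had 193 and 221 against 58 and 18 (2.73).

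**Figure D4:**
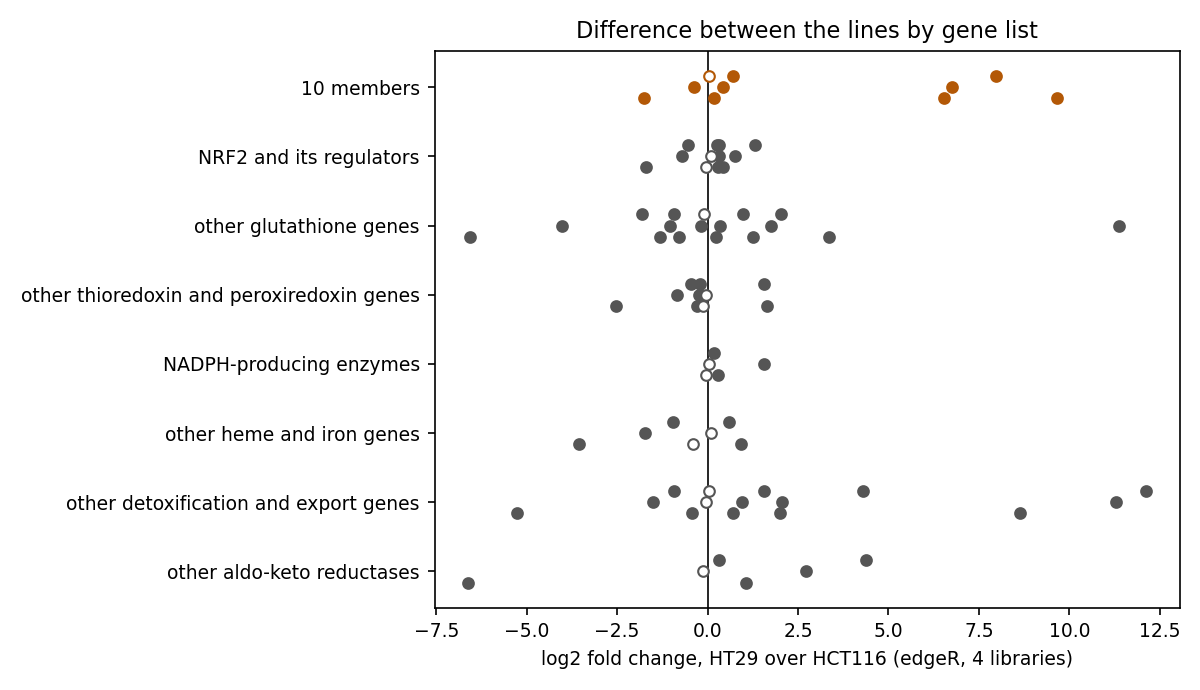
Log2 fold change of HT29 over HCT116 for each gene tested, by list, with the 10 genes in orange; filled points were called by edgeR's quasi-likelihood test and open points were not. The 10 genes hold 4 points beyond 6.5 on the right, and the other lists hold points on both sides of 0.

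For LPS over both lines, edgeR's quasi-likelihood test called 0 genes in each of these 7 lists, and DESeq2 called 0 as well. An unadjusted p under 0.05 was reached by 4 of 17 glutathione genes, 3 of 10 thioredoxin and peroxiredoxin genes, 2 of 5 NADPH and pentose phosphate enzymes, 1 of 7 heme and iron genes, 1 of 15 detoxification and export genes and 0 of 6 other aldo-keto reductases. Over all 14516 genes tested, 1101 reached an unadjusted p under 0.05. After adjustment, 32 were called by edgeR and 53 by DESeq2.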

How the data were processed

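RNA of HT29 and HCT116 cells was sequenced as 1 control and 1 LPS library per line. The deposited values are raw counts per gene, which the authors made, per the submitters' processing notes, with cutadapt 1.9, Trimmomatic 0.39, HISAT2 2.1.0 on hg38 and featureCounts 2.0.1. The annotation release was not given in the sources used here, nor were the settings for strand and multi-mapping reads. Of the gene identifiers, 93.1% have the same version in GENCODE 44, and exon lengths were equal for 10 of the 10 genes, so names and positions were taken from it. The table had 0 columns of no sample.

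CPM was normalized by TMM in edgeR 4.0.16 (R 4.3.3, limma 3.58.1), and FPKM divided it by the gene length in the file. Log2 ratios within a line used a prior count of 2 and Clopper-Pearson 95% intervals, which cover counting error only, with a floor of 3 counts. Both edgeR quasi-likelihood tests used all 4 libraries, genes whose mean reached 1 CPM, and Benjamini-Hochberg adjustment at 0.05, with the line or LPS as a block. A gene under 1 CPM in both libraries of a line entered through the other line, which fixed the direction of its difference between the lines. Alternatives were library size alone, DESeq2 1.42.0 or only its size factors, prior counts of 0.5 and 5, no filter, 5 CPM, no block, and single pairs of libraries. Scripts were tested on simulated data.

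The genes and lists were chosen with earlier results of these data known. The named genes are the 10, all 12 NRF2 regulators and, of each other list, up to 3 genes with the largest difference between the lines; genes under the filter are named without values. Marker genes are named by their list. A gene of the NADPH list is not reported here and was left out of its counts. The count of intervals above or below 0 was chosen after the data were seen. Promoter windows came from the RefSeq table on GRCh38.p14, and wider windows from the hg38 genome.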

Additional observations from a re-analysis of the deposited data

How the results depend on the processing

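For LPS over both lines, 1 of the 10 genes was called, and it was lower with LPS, under no filter on low counts and under a minimum mean of 5 CPM, where the main count was 0. The gene was AKR1C3 (adjusted p = 0.0234 and 0.00507, edgeR). Over all genes this test called 32, against 53 by DESeq2, 14 with its size factors, 24 with library size alone, 103 without a filter, 136 at 5 CPM and 0 without the line as a block. The number of the 10 genes higher in HCT116 was 1 with DESeq2, which did not call SRXN1 (adjusted p = 0.0841). The calls between the lines over all genes ran from 9127 to 12220, against 11112. TXNRD1 was not called with library size alone or without LPS as a block. Between the controls and between the LPS libraries, the log2 difference of HT29 over HCT116 was 0.13 and -0.06 for NQO1 and 0.14 and 0.23 for TXNRD1. Dropping the filter moved the median log2 fold change of all genes between the lines by -0.21. The cause of these shifts was not tested. The 40 log2 ratios of the 10 genes in HT29 and the 28 in HCT116 under the alternatives moved by less than their counting intervals. The test of LPS over both lines pairs the control and LPS libraries of a line through its block. No replicate could be left out because each condition has 1 library. Depth limits AKR1C1, AKR1C2, AKR1C3 and AKR1B10 in HCT116, at 0 to 41 counts.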
